A study of Mus musculus with 15 samples.

Results

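Cultures of mouse spermatogonial stem cells that had spent 18 h without GDNF (glial cell line-derived neurotrophic factor) and its co-receptor GFRalpha1 were set against cultures that had kept both. The comparison uses 6 of the 15 arrays of the study, selected by their titles, 3 of withdrawal cultures and 3 of maintained cultures. All cultures were enriched for spermatogonial stem cells and came from C57BL/6 males aged 6 days. The maintained cultures were kept throughout in defined medium free of serum, with GDNF, GFRalpha1 and bFGF, and the labels of the withdrawal cultures name the loss of GDNF and GFRalpha1 and say nothing of bFGF. No control that had its medium changed without losing the factors is labelled, so the loss of the factors and the handling that removed them cannot be told apart. The other 9 arrays, of cultures given both factors back for 2, 4 or 8 h after the 18 h, served only to estimate the spread and as levels to set beside the withdrawal values. Values are MAS5 signal, an array brightness in arbitrary units, so levels are compared between arrays for 1 gene and not between genes. Whether replicates came from different cultures is not stated, so p-values measure the spread of these arrays, which could be technical, and their number limits the precision. An exact permutation test of 3 arrays against 3 has 0.1 as its smallest two-sided p. Genes are therefore called with limma, whose estimate of the spread draws on all genes and all 15 arrays, at an adjusted p under 0.05. A log2 difference is limma's estimate, withdrawal minus maintained, on the scale of log2(signal + 16), and a fold is that difference on a linear scale.

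GDNF binds GFRalpha1 and activates the receptor tyrosine kinase RET, which feeds the RAS-ERK cascade, SRC family kinases and PI3K-AKT signalling. AKT keeps FOXO transcription factors out of the nucleus and, through mTORC1, ties nutrient supply to growth. In the testis GDNF comes from somatic cells beside the stem cells and sustains their self-renewal. ERK-responsive genes, sterol synthesis genes and genes of the stem cell state are left aside below, and what follows describes the other functions.

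The cultures expressed germ cell markers on every array. Dazl, a germ cell RNA-binding protein, read 5587, 7398 and 7640.1 on maintained replicates 1 to 3 and 6257, 6677 and 4112 on withdrawal replicates 1 to 3, and Ddx4, a germ cell RNA helicase, read 1314, 1118 and 1093 and 1266, 1410.1 and 831. Of 15 markers of undifferentiated germ cells that could be tested, 4 were lower (Gfra1, Etv5, Id4 and Epcam) and 1, Zbtb16, was higher. Over the 16 such markers on the array, the summed signal was 17118 to 18442 on maintained and 13118 to 15336 on withdrawal arrays. Gfra1, the gene of the withdrawn co-receptor, lost its call without maintained replicate 3, and Zbtb16 lost it without withdrawal replicate 3 or any single maintained array. Sertoli cell markers were dim, with Amh, their defining hormone gene, under the filter on dim probe sets (a signal of about 30.5), and a summed signal over 12 markers of 721 to 795 on maintained and 787 to 922 on withdrawal arrays. Fibroblast markers were present, with Col3a1 at 1931, 1279.9 and 1597 on maintained and 1153, 1295 and 2003 on withdrawal arrays. In bulk RNA, fewer cells of a type and less RNA per cell cannot be told apart.

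Withdrawal replicate 3 stood apart in its control probes. Its ratio of 3-prime to 5-prime signal was 2.77 for beta-actin against 1.10 to 1.75 on the other 14 arrays, 1.77 against 0.713 to 1.05 for Gapdh and 6.43 against 1.19 to 3.16 for pyruvate carboxylase. For the transferrin receptor it was 3.02, inside the range of 2.90 to 6.32 of the others. Across probe sets, replicate 3 correlated with the other 5 arrays of both groups at a Pearson's r of 0.928 to 0.948, while those 5 correlated among themselves at 0.947 to 0.979; probe sets are not independent replicates. Counts over all genes and over the lists were therefore also made without that array.

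In limma 1052 of 13083 genes (8.04%) were called, 551 higher (4.21%) and 501 lower (3.83%). Without withdrawal replicate 3 the count was 659 (5.04%), 304 higher (2.32%) and 355 lower (2.71%). Of the genes called with all arrays, 563 (53.5%) were also called without it, which is 85.4% of the shorter list, and all 563 changed in the same direction. The 489 genes called only with all arrays were 290 higher and 199 lower. In 403 of them replicate 3 was the withdrawal array farthest from the maintained mean in the direction of the difference. The same held for 48.8% of all genes and for 276 of the 563 called both ways. Selection of the 489 genes favours that placement. Their median size of log2 difference was 0.65 with all arrays and 0.50 without replicate 3, and all 489 kept their sign. Only 96 genes were called solely without replicate 3, and in all of them replicate 3 was the withdrawal array nearest to the maintained mean. A gene that gains its call when replicate 3 is left out is likely to be placed so, and this is no separate result. At least a 2-fold difference was seen in 230 of the 1052, 102 higher and 128 lower. Groups of arrays did not overlap for 3502 genes (26.8%), with the withdrawal arrays above in 16.1% and below in 10.7% of all genes. The largest rises and falls named below were taken only from genes without overlap, so its absence in them is no further support. The number called also fell without maintained replicate 2 (531) and without maintained replicate 3 (517). A fit to the 6 arrays alone gave 313 calls, and one with array weights 2297. With arrays shifted to 1 median, 911 genes were called and the share that was higher went from 52.4% to 29.1%, while the median log2 difference of all genes went from 0.06 to -0.04. Below, a call is said to hold without each array in turn where leaving out any 1 of the 6 arrays kept it. Of such genes, Pcna, Psat1, Ccnd2, Aldoc, Phf21a, Extl2, Jag1 and Hebp1 were still not called when only the 6 arrays were fitted. Cbx2, Sfrp1 and Txnip were not called when the probe sets of a gene were averaged, and Kdm5b, Scd2, Tgfb1, Gab1 and Orc4 were not called under either of these settings.

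**Figure D1:**
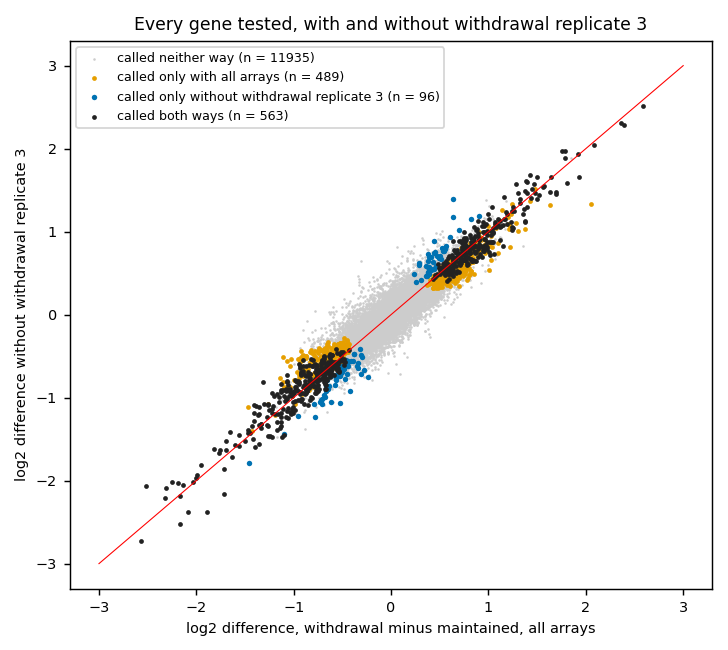
Each point is 1 of the 13083 genes, with the log2 difference (withdrawal minus maintained, log2 of signal + 16) from all arrays on the x axis and from the fit without withdrawal replicate 3 on the y axis. Black points (563) were called both ways, orange points (489) only with all arrays, blue points (96) only without replicate 3, grey points neither way, and the red line marks equal values; the orange points lie nearer to 0 on the y axis.

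The functions were followed with 37 gene lists that hold 1205 distinct tested genes, of which 135 (11.2%) were called, 67 higher and 68 lower. Of these genes 102 were called without withdrawal replicate 3, and 88 both ways. Over all genes 3.83% were called lower. Lists with at least 4 members called lower included hypoxia-responsive genes (5 of 25), fatty acid and glycerolipid synthesis (5 of 31), endoplasmic reticulum stress (4 of 27), oxidative stress (4 of 27), DNA replication (7 of 49), G1 cyclins (4 of 29) and adhesion and keratins (4 of 36). Those with at least 4 called higher, against 4.21% of all genes, were the interferon response (5 of 27), insulin and IGF signalling (4 of 33), mTORC1 nutrient sensing (5 of 43), WNT signalling (4 of 38) and histone modifiers (8 of 91). No list has more than 91 tested genes, so 4 calls put any list above the share of all genes. These shares are descriptions, since the lists share genes and were written with earlier results of these arrays known.

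**Figure D2:**
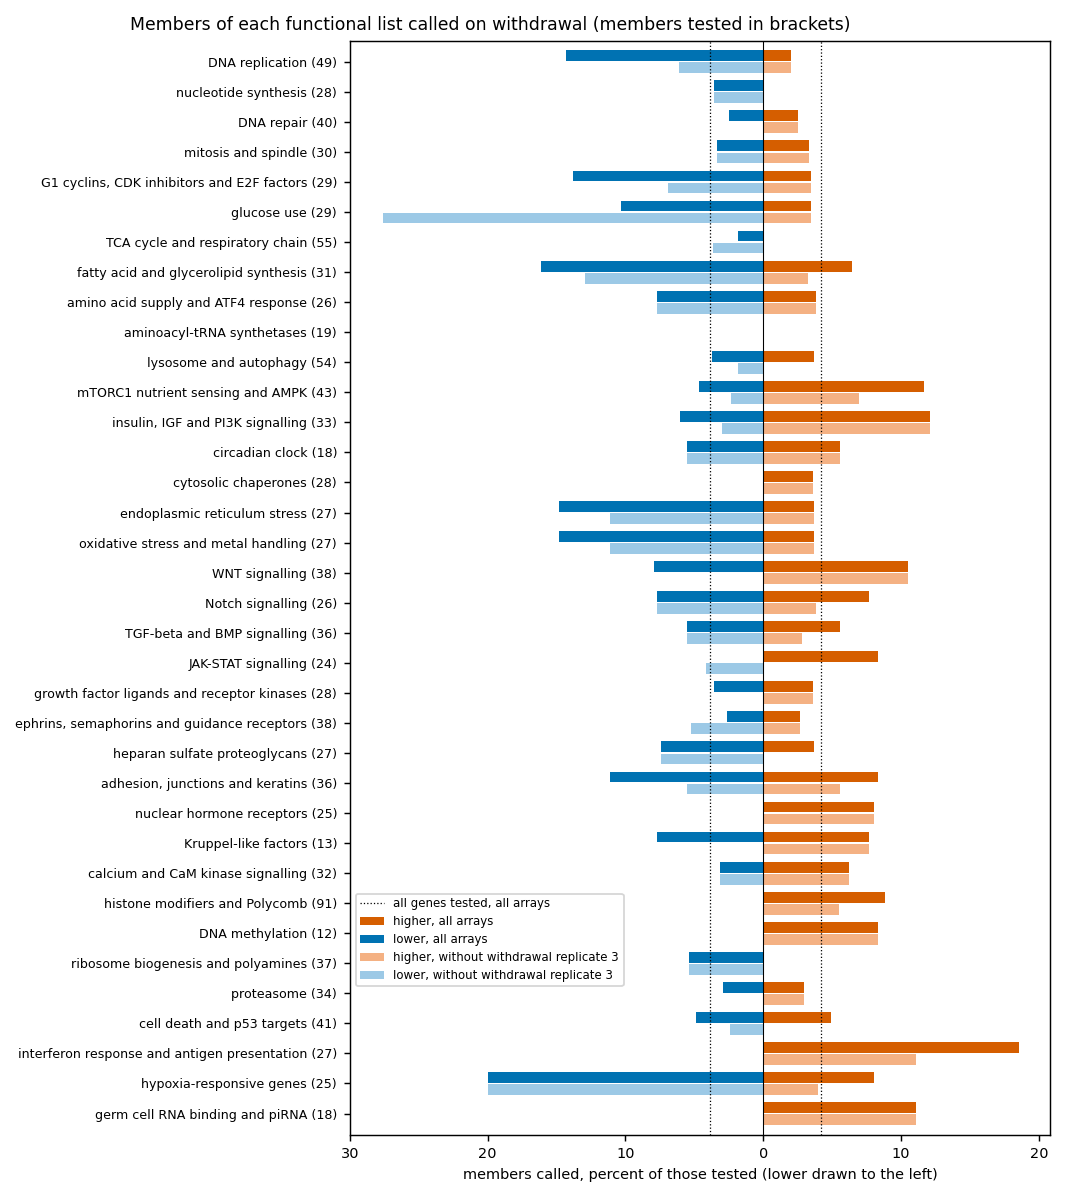
Percent of tested members called higher (orange, to the right) and lower (blue, to the left) in each of 36 of the lists, with all arrays (dark bars) and without withdrawal replicate 3 (pale bars); the number tested stands in brackets and dotted lines mark 4.21% higher and 3.83% lower over all genes. Glucose use had 3 members called lower with all arrays and 8 without replicate 3, while DNA replication went from 7 to 3. The shares of all genes that the pale bars are to be set against, 2.32% higher and 2.71% lower, are not drawn.

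Genes that pass nutrient and stress signals to the kinase complex mTORC1 moved in both directions. Rragd encodes a RAG GTPase that carries mTORC1 to the lysosome. It read 226, 279.5 and 266 on the maintained arrays and 959, 1282 and 1196 on the withdrawal arrays, 4.24-fold higher (log2 difference 2.08 ± 0.17 SE, adjusted p = 2.75e-06). Every withdrawal array lay above every maintained array by a wide margin. A second, dim probe set of Rragd was not called (log2 difference 1.08). Ddit4, a stress-induced inhibitor of mTORC1, was at 1159, 1261 and 1159.6 and 2318, 2571 and 3856 (2.37-fold higher, adjusted p = 0.00206), with replicate 3 highest. Deptor, an inhibitory subunit of mTOR complexes, went the other way, from 214, 239 and 247 to 122, 113 and 82.8 (2.06-fold lower, adjusted p = 0.00307), without overlap. These 3 calls held without each of the 6 arrays in turn. Of 43 genes in this list, 5 rose and 2 fell, with a median log2 difference of 0.12 against 0.06 over all genes. The counts were 3 and 1 without withdrawal replicate 3. Depdc5, a subunit of the GATOR1 complex that restrains mTORC1, lost its call without that array (log2 difference 0.77 with it and 0.52 without), and also without withdrawal replicate 1 or maintained replicate 2 or 3. Another probe set of Depdc5 with a like maintained signal was at -0.01 and was not called. Wdr24, a subunit of the GATOR2 complex, was at 175, 185 and 148 and 244, 254 and 387, and lost its call without withdrawal replicate 3 or maintained replicate 3. Lamtor1, a part of the lysosomal anchor of mTORC1 (log2 difference -0.15), and Eif4ebp2, a translation repressor that mTORC1 phosphorylates (-0.32), were not called.

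Tfeb, a transcription factor for lysosome and autophagy genes that mTORC1 holds in the cytoplasm, showed the largest difference of the lysosome list. Its signal was 446, 358 and 394 on maintained and 81.7, 37.1 and 133 on withdrawal arrays (4.5-fold lower, adjusted p = 0.00302). The withdrawal arrays differed among themselves, but the highest of them stayed under the lowest maintained array, and the call held without each array in turn. The 54 tested lysosome and autophagy genes as a whole were near the background, with 2 higher (Atg4b, a protease of autophagy, and Naglu, a heparan sulfate-degrading enzyme) and 2 lower (Tfeb and Uvrag, a regulator of autophagosome formation). Tfeb was the single call without withdrawal replicate 3. Atg4b also lost its call without any maintained array, Naglu without withdrawal replicate 2 or maintained replicate 1 or 2, and Uvrag without withdrawal replicate 1 or maintained replicate 2 or 3. Lamp1, a lysosomal membrane protein, and Ctsl, a lysosomal protease, were at log2 differences of 0.09 and -0.07 and were not called.

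In the insulin and IGF list the ligand gene Igf2 fell and the binding protein genes Igfbp6 and Igfbp2 rose. Igf2, a growth factor that acts through the IGF1 receptor, read 1547, 1696 and 1638 on maintained and 775, 777 and 633 on withdrawal arrays (2.22-fold lower, adjusted p = 3.03e-05). Igfbp6, a secreted protein that binds IGF2 in preference to IGF1, read 309.9, 316 and 262 and 876, 1068 and 1696 (3.81-fold higher, adjusted p = 0.000264). Replicate 3 gave the highest value, and without it the difference was still 3.16-fold. Igfbp2, another IGF-binding protein, rose from 142, 179 and 176 to 284, 299 and 318 (1.75-fold, adjusted p = 0.00218). Foxo1, a transcription factor that AKT inactivates, read 524, 499 and 575 and 845, 851 and 1028 (1.68-fold higher, adjusted p = 0.00179). Of its 3 probe sets 2 were called higher, while the third, of like brightness, was not (log2 difference 0.13). Gab1, an adaptor that recruits PI3K to receptors, was 1.54-fold higher (adjusted p = 0.00785). Maintained and withdrawal arrays did not overlap in any of these 5 genes, and the 5 calls held without each array in turn. Of 33 genes tested, 4 rose and 2 fell (median log2 difference 0.14), and without withdrawal replicate 3 the counts were 4 and 1. Igfbp4, a further binding protein, read 1045, 738 and 836 and 799, 874 and 1934 and was not called (log2 difference 0.35, adjusted p = 0.458, and -0.05 without withdrawal replicate 3). Igf1r, the receptor gene, was at a log2 difference of 0.10 and was not called. Fbxo32, a ubiquitin ligase gene that FOXO factors induce in muscle, read 208, 147 and 170.0 and 499, 574 and 557 (2.94-fold higher, adjusted p = 0.000302), and a second of its 3 probe sets past the filter was also called higher.

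**Figure D3:**
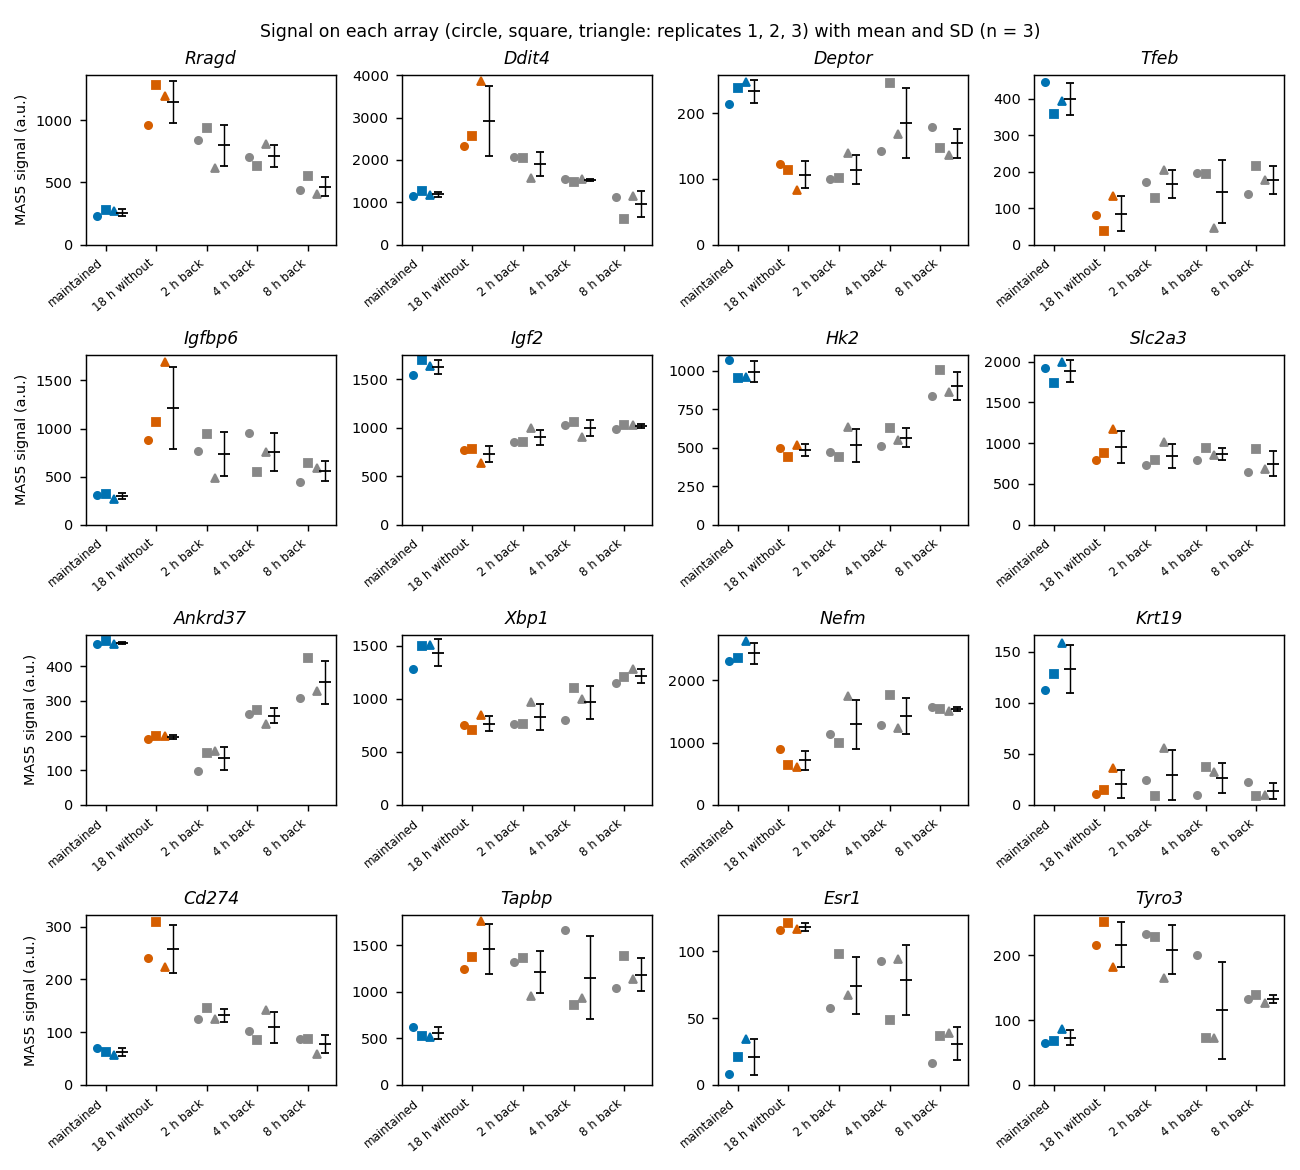
MAS5 signal in arbitrary units on each of the 15 arrays for 16 genes, by group along the x axis (maintained in blue, 18 h withdrawal in orange, and 2, 4 and 8 h after the factors were given back in grey); symbols are replicates 1 to 3, and dashes with bars are the mean and SD (n = 3). In all 16 panels the maintained and withdrawal arrays do not overlap, with Rragd, Ddit4, Igfbp6, Cd274, Tapbp, Esr1 and Tyro3 higher and the other 9 lower after withdrawal. Arrays did not overlap for 26.8% of all genes. Rragd, Tfeb, Igfbp6, Nefm, Krt19, Cd274 and Esr1 could be named among the largest changes only on that condition.

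Hypoxia-responsive genes held the largest share of called members among the 37 lists, 28.0% of 25, with 5 lower and 2 higher. Ankrd37, a small protein induced by hypoxia-inducible factors, read 465, 472 and 465 on maintained and 189, 199 and 199 on withdrawal arrays (2.29-fold lower, adjusted p = 0.000302). Hk2, the inducible hexokinase that starts glycolysis, read 1071, 952 and 961 and 499, 443 and 517 (2.01-fold lower, adjusted p = 0.000469). Adm, the vasoactive peptide adrenomedullin, read 254, 326 and 256 and 118, 147 and 113 (2.07-fold lower, adjusted p = 0.00276). A second probe set of Adm was also called lower (log2 difference -1.74). In all 3 genes the withdrawal arrays were close to each other and replicate 3 was not apart. Bhlhe40, a transcriptional repressor used by the circadian clock and induced by hypoxia, was lowered most, from 507, 457 and 506 to 78.1, 115 and 99.1 (4.5-fold, adjusted p = 1.89e-06). The calls of these 4 held under every alternative tried. Ero1a, an oxidase of protein folding, was also called lower (-0.45), though not without withdrawal replicate 1 or 3 or any single maintained array. Without withdrawal replicate 3, 5 members were lower, with Ldha (lactate dehydrogenase A) in place of Ero1a, and 1 was higher, and the median log2 difference went from -0.10 to -0.01. Egln1, the prolyl hydroxylase that marks hypoxia-inducible factors for destruction, was called higher (0.51) and lost that call without withdrawal replicate 1 or 3 or any single maintained array. Its second probe set, of like brightness, was at a log2 difference of -0.06 and was not called. Epas1, the subunit HIF-2alpha, read 377, 429.7 and 402 and 518, 634 and 542 (adjusted p = 0.0324), and lost its call without withdrawal replicate 2 or any single maintained array.

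The upstream sequences of 3 of these genes are shown because their products belong to 1 response, and their transcripts fell together. Each is the 250 bases before the start in RefSeq's table for GRCm38.p6, written 5-prime to 3-prime on the gene's own strand. Capitals mark ACGTG or GCGTG on either strand (CACGT or CACGC as written here), the core that hypoxia-inducible factors recognise, and overlapping matches run together. Ankrd37 lies at chr8:45999851-46000100 on the minus strand, Hk2 at chr6:82774455-82774704 on the minus strand and Adm at chr7:110627407-110627656 on the plus strand.
Ankrd37: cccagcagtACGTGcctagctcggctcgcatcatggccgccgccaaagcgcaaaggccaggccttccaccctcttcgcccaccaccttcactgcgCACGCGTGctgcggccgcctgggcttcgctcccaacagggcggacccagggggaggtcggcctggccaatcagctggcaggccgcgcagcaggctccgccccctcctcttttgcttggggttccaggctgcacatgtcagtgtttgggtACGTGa
Hk2: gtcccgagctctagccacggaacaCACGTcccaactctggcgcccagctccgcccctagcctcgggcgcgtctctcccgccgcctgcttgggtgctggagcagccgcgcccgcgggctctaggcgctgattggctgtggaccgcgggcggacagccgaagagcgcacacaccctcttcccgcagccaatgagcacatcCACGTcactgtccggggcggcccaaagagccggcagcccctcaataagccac
Adm: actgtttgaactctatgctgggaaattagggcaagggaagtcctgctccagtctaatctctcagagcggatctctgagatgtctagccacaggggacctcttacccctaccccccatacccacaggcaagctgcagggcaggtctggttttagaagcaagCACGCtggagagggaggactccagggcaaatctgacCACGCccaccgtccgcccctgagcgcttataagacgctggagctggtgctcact
Ankrd37 holds 4 matches, 1 of them 6 bases before the start, while Hk2 and Adm hold 2 each. Windows were found for 22 of the 25 genes, and 19 of them (86.4%) hold a match, as do all 4 windows of members called lower. The window of Egln1, which was called higher, holds 2 matches as well. The same letters stand in 55.4% of the 10570 windows of tested genes and in 38.6% of all 27025 windows, so a match in a window is common, and nothing here measures binding.

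Glucose use was the function in which the result turned most on 1 array. With all arrays 3 of 29 genes fell and 1 rose; without withdrawal replicate 3, 8 fell and 1 rose. Slc2a3, the glucose transporter GLUT3, read 1917, 1734 and 1991 on maintained and 794, 883 and 1171 on withdrawal arrays (1.99-fold lower, adjusted p = 0.00166), with replicate 3 nearest to the maintained values. Aldoc, a fructose-bisphosphate aldolase, fell from 946, 884 and 875 to 675, 600.3 and 611 (1.42-fold, adjusted p = 0.0108), and Hk2 is the remaining member that fell. Hk1, the constitutive hexokinase, rose 1.37-fold (adjusted p = 0.0236), and lost its call without withdrawal replicate 2 or maintained replicate 2 or 3. Pgk1, phosphoglycerate kinase, shows the difference between the arrays. It read 4896, 6628 and 5989.8 on maintained arrays and 2589.8, 2983 and 6941 on withdrawal arrays, so replicates 1 and 2 were below all maintained arrays and replicate 3 above them. With all arrays its log2 difference was -0.62 (adjusted p = 0.167), and without replicate 3 it was -1.06 (adjusted p = 0.00191). Ldha, lactate dehydrogenase A, went from -0.65 (adjusted p = 0.0919) to -0.89 (adjusted p = 0.0266). Aldoa, Tpi1 and Tkt, named after their values were seen, complete the 8 genes called lower without that array. The aldolase gene Aldoa had a log2 difference of -0.58 with it and -0.85 without. For the triosephosphate isomerase gene Tpi1 these were -0.48 and -0.77, and for the transketolase gene Tkt -0.71 and -1.01. Dimmer probe sets of Pgk1 (log2 difference -0.81) and Tkt (-0.59) were called lower with all arrays. The chosen probe sets of Aldoa, Pgk1 and Tkt can share sequence with near copies, so their values are uncertain. Pkm, pyruvate kinase, was not called either way (-0.06 and -0.14).

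**Figure D4:**
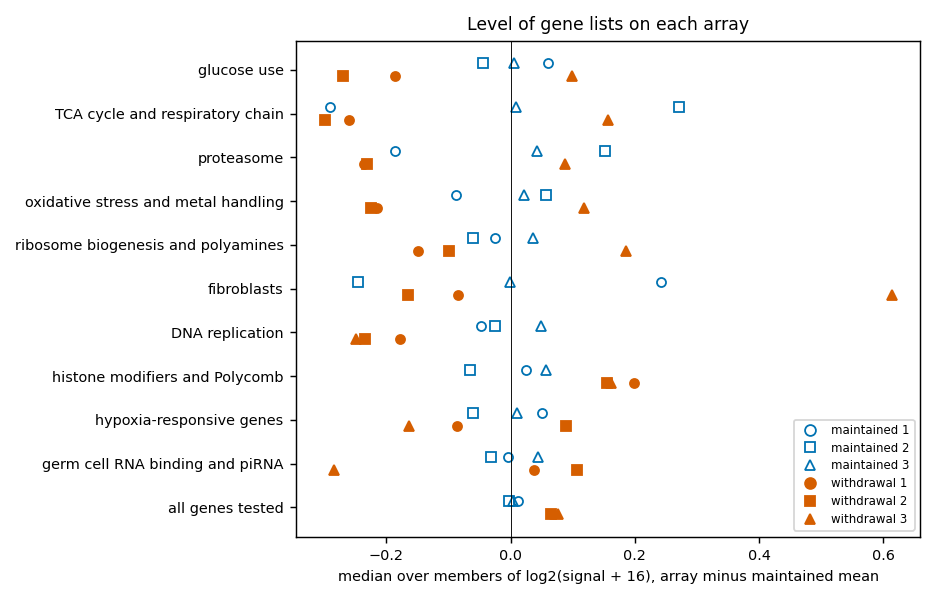
Median over the members of a list of log2(signal + 16) minus the maintained mean, on each of the 6 arrays (open blue symbols maintained, filled orange symbols withdrawal; circle, square and triangle are replicates 1, 2 and 3). For glucose use, respiratory chain, proteasome, oxidative stress, ribosome and fibroblast genes withdrawal replicates 1 and 2 lie below 0 and replicate 3 above it, whereas for DNA replication and histone modifier genes the 3 withdrawal arrays lie on 1 side. The median over all genes tested also lies on 1 side, at 0.07, 0.06 and 0.08 on withdrawal replicates 1, 2 and 3.

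The same split of the withdrawal arrays ran through other lists. The 29 glucose genes had a median log2 difference from the maintained mean of -0.19, -0.27 and 0.10 on withdrawal replicates 1, 2 and 3. For 55 genes of the TCA cycle and respiratory chain the medians were -0.26, -0.30 and 0.16, and for 34 proteasome genes -0.24, -0.23 and 0.09. Maintained arrays were themselves spread for these lists, between -0.29 and 0.27 for the respiratory chain and between -0.19 and 0.15 for the proteasome. The 19 tested fibroblast markers moved alongside, at -0.08, -0.17 and 0.61 on the withdrawal arrays, and 0 of them were called in limma with or without replicate 3. Summed over the 20 fibroblast markers on the array, the signal was 10826 to 16915 on withdrawal and 10932 to 14685 on maintained arrays. The part of fibroblast RNA or of the 3-prime to 5-prime ratio in these values was not tested. In the respiratory chain list 1 gene was called, Uqcrfs1, the iron-sulfur subunit of complex III, at 1057, 1502 and 1317 and 927, 716 and 741 (1.61-fold lower, adjusted p = 0.0122), and its call was lost without maintained replicate 2 or 3. A second gene was called lower once withdrawal replicate 3 was left out, Cox8a, a subunit of complex IV, at -0.52 with all arrays and -0.74 without. In the proteasome list Psmd7, a lid subunit, rose from 607, 452 and 489 to 984, 1093 and 948 (1.94-fold, adjusted p = 0.0125) and lost its call without maintained replicate 2 or 3. Psmb2, a core subunit, fell (-0.54), but not without withdrawal replicate 2 or 3 or maintained replicate 2 or 3.

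Of 31 genes for fatty acid and glycerolipid synthesis, 5 fell, 2 rose and 24 were not called (median log2 difference -0.14), and 4 fell and 1 rose without withdrawal replicate 3. Scd1, the stearoyl-CoA desaturase, read 705, 666 and 704 on maintained and 397, 362 and 238 on withdrawal arrays (2.08-fold lower, adjusted p = 0.00113). Its relative Scd2 fell from 4872, 5673 and 5361 to 3326, 3315 and 3496 (1.56-fold, adjusted p = 0.00704). Acsl4, which activates polyunsaturated fatty acids with coenzyme A, read 309, 378 and 314 and 174, 153 and 145 (2.02-fold lower, adjusted p = 0.000701). Groups did not overlap in any of the 3, and replicate 3 was the lowest withdrawal array for Scd1 and Acsl4. Agpat5, an acyltransferase of phosphatidic acid synthesis, rose from 381, 374 and 405 to 619, 775 and 571 (1.65-fold, adjusted p = 0.00633). These 4 calls held without each array in turn. The desaturase genes Fads1 (-0.13) and Fads2 (-0.27) and the synthetase gene Acsl3 (-0.17) were not called. The other gene that rose, Gpam (0.55), lost its call without replicate 3, as it did when any maintained array was omitted. Acly (-0.49), which supplies acetyl-CoA, and Elovl5 (-0.38), an elongase, were not called.

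Amino acid supply and protein folding genes changed in small numbers. Psat1, an aminotransferase of serine synthesis, fell from 1234, 1133 and 1278 to 854, 786 and 716 (1.54-fold, adjusted p = 0.00378). Trib3, a pseudokinase induced by ATF4, rose from 147, 161 and 226 to 299, 348 and 346 (1.81-fold, adjusted p = 0.0041). Asns, asparagine synthetase and another ATF4 target, fell (-0.52), although its call was lost without withdrawal replicate 1 or 2 or maintained replicate 2 or 3. These were the 3 calls among 26 genes, with and without withdrawal replicate 3, and 0 of 19 aminoacyl-tRNA synthetase genes were called in limma either way. Of 27 endoplasmic reticulum stress genes, 4 fell and 1 rose, and 3 and 1 without withdrawal replicate 3. Xbp1, the transcription factor of the unfolded protein response, read 1284, 1501 and 1508 and 751, 703 and 844 (1.85-fold lower, adjusted p = 0.00107), without overlap and with a second probe set called lower. Manf, a secreted factor induced by that response, read 981, 1435 and 1083 and 673, 654 and 732 (1.66-fold lower, adjusted p = 0.0111). Edem1, which sends misfolded glycoproteins to degradation, was at a log2 difference of -0.68 (adjusted p = 0.0147), while a second probe set of it was at 0.00 and was not called. Manf and Edem1 lost their calls without maintained replicate 2, and Xbp1 kept its call without each array in turn. The member that rose was Atf6, another sensor of folding stress (0.68), whose call was lost without withdrawal replicate 1 or 2 or maintained replicate 2 or 3. The chaperones Calr (0.10) and Hyou1 (0.17) were not called.

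Among 27 genes of oxidative stress and metal handling, 4 fell and 1 rose, and 3 and 1 without withdrawal replicate 3, with 1 of the 3 being Gpx4, a glutathione peroxidase (-0.34 with all arrays and -0.65 without). Txnip, an inhibitor of thioredoxin, read 801, 702 and 774 on maintained and 1263, 1618 and 1443 on withdrawal arrays (1.87-fold higher, adjusted p = 0.000701), and this call held without each array in turn. Txn1, thioredoxin itself, read 1757, 3037 and 2733 and 1397, 1177 and 1441 (1.82-fold lower, adjusted p = 0.0239). Gsta4, a glutathione transferase, read 482, 856 and 762 and 224, 244 and 410.0 (2.33-fold lower, adjusted p = 0.0361). The maintained arrays of both genes were widely spread. The calls of Txn1 (without withdrawal replicate 2) and Gsta4 (without withdrawal replicate 1 or 2) were lost, and both were lost without maintained replicate 2 or 3. Nfe2l2, the transcription factor of the antioxidant response (-0.65), and Hmox1, heme oxygenase (-0.69), were called lower with all arrays and not without withdrawal replicate 3. Nfe2l2 also lost its call without any single maintained array, and Hmox1 without withdrawal replicate 1 or maintained replicate 1 or 3.

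Genes of DNA synthesis fell in part. Of 49 DNA replication genes 7 fell and 1 rose, 36 had a negative log2 difference, and the median was -0.23 with all arrays and -0.22 without withdrawal replicate 3. The list median was below the maintained mean on each withdrawal array, at -0.18, -0.23 and -0.25. Pcna, the sliding clamp of DNA polymerases, read 5692, 7206 and 6765 on maintained and 3605, 3714 and 1969 on withdrawal arrays (2.19-fold lower, adjusted p = 0.00337), with replicate 3 lowest. Cdc6, a licensing factor for replication origins, read 309.5, 288 and 298 and 159, 142 and 169.8 (1.82-fold lower, adjusted p = 0.0134), with all arrays of a group close to each other. Orc4, a subunit of the origin recognition complex, read 495, 566 and 626 and 358, 327 and 201 (1.9-fold lower, adjusted p = 0.00276). Chaf1b, a subunit of the chromatin assembly factor that follows the replication fork, rose from 284, 208 and 279.6 to 573, 602 and 609 (2.25-fold, adjusted p = 0.000164). Those 4 were called both with and without each array. Orc6 (-0.69) lost its call without any 1 withdrawal array or maintained replicate 2 or 3. Counts of members called lay between 4 and 9 when single arrays were left out, 4 being the count without withdrawal replicate 3 and without maintained replicate 3. The helicase subunit Mcm7 (0.10) and the single-strand binding protein Rpa1 (0.07) were not called. Rrm2, the ribonucleotide reductase subunit made in S phase, read 1595, 3099 and 1834 and 827, 639.9 and 865 (2.67-fold lower, adjusted p = 0.0071) and was the single call among 28 nucleotide synthesis genes.

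Cyclins D2, D3, E1 and E2 fell, and the rest of the cell cycle showed few calls. Ccnd2, a D-type cyclin that joins CDK4 and CDK6, read 4335, 4729.8 and 4953 on maintained and 2357, 2063 and 3219.5 on withdrawal arrays (1.86-fold lower, adjusted p = 0.00656), with replicate 3 nearest to the maintained arrays. Ccne1, cyclin E1, read 353, 448 and 437 and 194, 169.5 and 231 (2.0-fold lower, adjusted p = 0.0164), a call lost without withdrawal replicate 2 or maintained replicate 2 or 3. Ccne2, cyclin E2, read 216, 224 and 272 and 148, 149 and 51.6 (2.06-fold lower, adjusted p = 0.0232), and replicate 3 was far below the others. Ccne2 lost its call without withdrawal replicate 3 or maintained replicate 2 or 3, and Ccnd3 (-0.55) without withdrawal replicate 3 or maintained replicate 1 or 3. Cdkn1c, the CDK inhibitor p57, rose from 375, 465 and 295 to 567, 578 and 703 (1.62-fold, adjusted p = 0.0142), a call lost without withdrawal replicate 3 or maintained replicate 3. Thus 4 of 29 fell and 1 rose, and without withdrawal replicate 3 the counts were 2 and 1, the latter being Rb1, the retinoblastoma protein, at 0.39 and with all arrays at 0.26. Cdk4 (-0.14) and Ccnd1 (-0.37) were not called. Of 30 mitosis and spindle genes, Cdk1, the mitotic kinase, fell from 1251, 1715 and 1509 to 1003, 985 and 759 (1.62-fold, adjusted p = 0.0107; call lost without maintained replicate 2), and Cdc25c, a phosphatase that activates it, rose from 64.2, 82.3 and 78.4 to 156, 144 and 193 (1.97-fold, adjusted p = 0.00256). Among 40 DNA repair genes, Neil3 (-0.88), a DNA glycosylase, was called lower and Xrcc1 (0.70), a scaffold of single-strand break repair, higher. Neither call survived the omission of withdrawal replicate 3 or of any of the maintained arrays.

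All called genes of the histone modifier and Polycomb list were higher. Of 91 tested, 8 rose and 0 fell, and the 8.79% called was near the 8.04% of all genes (4.21% higher and 3.83% lower). A positive log2 difference was seen in 65, with a median of 0.15 against 0.06 over all genes (0.18 without withdrawal replicate 3, and 0.06 against -0.04 with arrays shifted to 1 median). Zmym3 is a zinc finger protein found with histone demethylase complexes. With ERK, sterol, stem cell and clone-named genes set aside, it showed the largest rise of genes called both ways without overlap. It read 107, 112 and 153 on maintained and 681, 873 and 902 on withdrawal arrays (5.99-fold higher, log2 difference 2.58 ± 0.24 SE, adjusted p = 8.68e-06). Phf21a, a reader of unmodified histone H3 in a demethylase complex, rose from 220.1, 308 and 238 to 422, 414 and 711 (1.92-fold, adjusted p = 0.00534). Cbx2, a Polycomb subunit that binds trimethylated H3, read 473, 379 and 460.2 and 706, 766 and 767 (1.69-fold higher, adjusted p = 0.00163). Kdm5b, a demethylase of H3K4, read 1125, 895 and 1156 and 1694, 1673 and 1880.2 (1.65-fold higher, adjusted p = 0.00575). In each of these 4 the arrays of the 2 groups were apart, and the calls held without each array in turn. Ehmt2, a methyltransferase of H3K9, was at a log2 difference of 1.04 (adjusted p = 0.0287), and lost its call without withdrawal replicate 3 or maintained replicate 2 or 3. Without withdrawal replicate 3, and likewise without maintained replicate 2 or 3, 5 members were called. Prmt1 (-0.09) and Hdac2 (-0.08) were not called. Of 12 DNA methylation genes Dnmt3a, a de novo methyltransferase, rose from 96.5, 95.2 and 108 to 184, 196 and 181 (1.75-fold, adjusted p = 0.0222). Its call was lost without withdrawal replicate 2 or any single maintained array. Of its 5 probe sets 2 were called higher, and the rest, at log2 differences of 0.11, 0.18 and 0.73, were not called. Dnmt1 (-0.01) was not called.

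Secreted modulators of WNT signalling changed in both directions. Rspo1, an agonist that binds LGR receptors and raises WNT signalling, read 29.4, 43.6 and 19.0 on maintained and 198, 221 and 237 on withdrawal arrays (5.14-fold higher, adjusted p = 1.56e-05). The maintained level was close to the filter on dim probe sets, so this fold depends on the constant of 16. Sfrp1, a secreted antagonist, rose from 299, 234 and 332 to 471, 469 and 589.6 (1.74-fold, adjusted p = 0.00687). Dkk3, a member of the Dickkopf family, rose from 48.3, 53.1 and 35.0 to 104, 131 and 66.1 (1.86-fold, adjusted p = 0.02), a call lost without withdrawal replicate 1 or 2 or maintained replicate 3. The antagonists Wif1 (-0.83) and Sfrp2 (-0.81) were called lower with all arrays. Both calls ended without withdrawal replicate 3 and without maintained replicate 2 or 3, and that of Sfrp2 also without maintained replicate 1. Of 38 genes, 4 rose and 3 fell, and without withdrawal replicate 3 the counts were 4 and 0. Ctnnb1, the transducer beta-catenin, was at -0.07 and was not called.

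Notch and TGF-beta genes gave 4 calls each, 2 higher and 2 lower, and 1 higher and 2 lower in both lists without withdrawal replicate 3. Jag1, a Notch ligand, fell from 541, 1214 and 803 to 351, 399.7 and 249 (2.4-fold, adjusted p = 0.00507), with widely spread maintained arrays that still lay above all withdrawal arrays, and a dim second probe set at a log2 difference of -0.06 that was not called. Lfng, a glycosyltransferase that modifies Notch, fell from 179.7, 125 and 128 to 63.5, 80.4 and 74.4 (1.79-fold, adjusted p = 0.0175; call lost without withdrawal replicate 1 or maintained replicate 1). Hes5, a repressor that Notch induces, rose from 19.8, 66.3 and 20.7 to 132, 89.8 and 141 (2.83-fold, adjusted p = 0.00281), on a maintained level near the filter. Ligand and target thus changed in opposite directions. The fourth Notch call, Rfng (0.65), was lost without withdrawal replicate 3 or maintained replicate 2 or 3. In the TGF-beta and BMP list of 36 genes, Tgfb1, a ligand, fell from 506, 298 and 283 to 202, 161 and 118 (2.12-fold, adjusted p = 0.00353) and Acvr2b, an activin receptor, rose from 338, 340.2 and 353 to 581, 553 and 858 (1.85-fold, adjusted p = 0.00509). Both calls held without each array in turn, though a dim second probe set of Tgfb1 (0.04) was not called. Id3, a BMP target, fell (-0.68; call lost without withdrawal replicate 1 or 2 or maintained replicate 2 or 3), and Smad5, a BMP transducer, was called higher (0.60) but not without withdrawal replicate 3 or maintained replicate 1 or 2. Another probe set of Smad5, of like brightness, was at -0.27 and was not called. Smad2 (-0.33) and Smad4 (-0.15), transducers of these pathways, were not called.

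Receptors and modulators at the cell surface held some of the largest single changes, although few of their list members were called. Epha2, a receptor tyrosine kinase for ephrins, read 299, 265 and 241 on maintained and 114, 26.5 and 49.9 on withdrawal arrays (3.97-fold lower, adjusted p = 0.000879). Tyro3, a receptor kinase of the TAM family, read 64.6, 67.9 and 87.2 and 216, 252 and 182 (2.6-fold higher, adjusted p = 0.00416). Hs3st3b1, a sulfotransferase that finishes heparan sulfate chains, fell from 437, 376 and 532 to 95.0, 92.5 and 26.9 (5.73-fold, adjusted p = 0.000261). Its fall was the largest of genes called both ways without overlap, once ERK, sterol, stem cell and clone-named genes were set aside. Without withdrawal replicate 3, its lowest array, the fall was 4.19-fold. Its other 2 probe sets were lower by log2 differences of -0.58 and -0.46 and were not called. Of 38 ephrin, semaphorin and guidance genes 1 rose and 1 fell, of 28 growth factor and receptor kinase genes 1 rose and 1 fell, and of 27 heparan sulfate genes 1 rose and 2 fell. The counts without withdrawal replicate 3 were 1 and 2, 1 and 0, and 0 and 2. Sema6d, a semaphorin, rose from 402, 386 and 398 to 721, 767 and 432 (1.55-fold, adjusted p = 0.0295), and here replicate 3 was nearest to the maintained arrays. Its call was lost without withdrawal replicate 1 or 2 and without any single maintained array. Extl2, a transferase of heparan sulfate synthesis, fell (-0.59, adjusted p = 0.00865). The calls of Flt1, a VEGF receptor (-0.94), and Sdc2, a syndecan (0.58), were lost without withdrawal replicate 2 or 3 or maintained replicate 1 or 3, and Sdc2 also lost its call without maintained replicate 2. The other 2 probe sets of Flt1 were called lower with larger log2 differences of -1.82 and -1.80.

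Of 36 adhesion, junction and keratin genes, 4 fell, 3 rose and 29 were not called, and 2 fell and 2 rose without withdrawal replicate 3. Krt19, an intermediate filament protein of simple epithelia, read 112, 128 and 159 on maintained and 10.3, 14.8 and 36.4 on withdrawal arrays (4.24-fold lower, adjusted p = 0.00293). Krt18, another keratin of simple epithelia, read 106, 116 and 102 and 35.5, 27.1 and 58.6 (2.25-fold lower, adjusted p = 0.00515). The withdrawal mean of Krt19 lay under the filter, so its fold depends on the constant of 16. Krt8, the usual partner of Krt18, was not called (-0.06). Gjb2, the gap junction protein connexin 26, rose from 139, 109.5 and 119 to 339, 352 and 297 (2.5-fold, adjusted p = 0.000217). Krt18, Krt19 and Gjb2 did not overlap between groups and were called without each array in turn. The integrin genes Itga1 (-1.01) and Itga9 (0.95) lost their calls without withdrawal replicate 3, without maintained replicate 2 or 3 and, for Itga1, without withdrawal replicate 2, while a second probe set of Itga9 was called higher with all arrays (log2 difference 1.60).

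All called members of the interferon response and antigen presentation list were higher. Of 27 tested, 5 rose and 0 fell, and 3 rose without withdrawal replicate 3. The class II gene H2-Ab1, which is outside this list, was called lower (log2 difference -1.69) and is described in the closing section. Tapbp, which loads peptides onto class I molecules, read 625, 529.8 and 512 on maintained and 1247, 1371 and 1759 on withdrawal arrays (2.56-fold higher, adjusted p = 0.001). Irf1, a transcription factor induced by interferons, read 704, 646 and 597 and 1089.5, 1256 and 1533 (1.95-fold higher, adjusted p = 0.00648). Oasl2, an interferon-induced protein, read 68.8, 66.6 and 62.2 and 222, 247 and 140.2 (2.61-fold higher, adjusted p = 0.00504). Replicate 3 was the highest withdrawal array for Tapbp and Irf1 and the lowest for Oasl2, and the 3 calls held without each array in turn. Psmb10, an immunoproteasome subunit (0.80), lost its call without withdrawal replicate 3 or any single maintained array. Rsad2, an antiviral enzyme (0.63), lost it without any single withdrawal array or maintained replicate 3. The list median was 0.08 against 0.06 over all genes, and -0.01 against -0.04 with arrays shifted to 1 median. B2m, the light chain of class I molecules (-0.66), and Ifitm3 (0.15) were not called. In the JAK-STAT list of 24 genes Socs3, a feedback inhibitor of cytokine receptors (0.52), and Tyk2, a Janus kinase (0.45), were called higher. Both calls were lost without withdrawal replicate 3 and without maintained replicate 2 or 3, and that of Tyk2 also without withdrawal replicate 2. Other bright probe sets of Socs3, at log2 differences of 0.30 and 0.24, were not called. Without withdrawal replicate 3 the list had 0 members called higher and 1 lower.

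Several lists with few calls held single genes with large differences. Esr1, the estrogen receptor alpha, read 7.9, 20.7 and 34.3 on maintained and 116, 122 and 117 on withdrawal arrays (3.79-fold higher, adjusted p = 0.000701), from a maintained level under the filter on dim probe sets, and its second probe set was not called (log2 difference 0.62). Rara, a retinoic acid receptor, read 71.0, 31.4 and 23.0 and 149, 93.1 and 104 (2.38-fold higher, adjusted p = 0.0218), a call lost without withdrawal replicate 1 or maintained replicate 2 or 3. They were the 2 calls among 25 nuclear hormone receptors, with and without withdrawal replicate 3. Camk2n1, an inhibitor of the calcium-activated kinase CaMKII, rose from 145, 164 and 148 to 811, 791 and 1023 (5.26-fold, adjusted p = 7.37e-07), and its second, dimmer probe set was not called (log2 difference 0.37). Of 32 calcium genes 2 rose and 1 fell. Rcan1, an inhibitor of calcineurin, was the other that rose (0.67), and Atp2a2, a calcium pump of the endoplasmic reticulum, fell (-0.51). Both lost their calls without maintained replicate 2, and Atp2a2 also without maintained replicate 3. Plk3, a stress-responsive polo-like kinase, fell from 78.4, 71.8 and 85.1 to 7.3, 8.9 and 6.2 (adjusted p = 0.000116), where all 3 withdrawal values lay under the filter. The remaining 3 calls among 41 cell death and p53 genes, Bik (0.98), Birc2 (0.53) and Gadd45a (-0.65), were lost without withdrawal replicate 3. They were also lost without maintained replicate 3, and those of Birc2 and Gadd45a without withdrawal replicate 1 or any maintained array.

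In the circadian list of 18, Nr1d1, a repressor of the clock, rose from 201, 102 and 105 to 241, 275 and 293 (1.95-fold, adjusted p = 0.0121; call lost without maintained replicate 2 or 3), and Bhlhe40, described above, fell. Among 28 cytosolic chaperone genes Hspa1a, an inducible HSP70, rose from 105, 115 and 114 to 215, 269 and 175 (1.83-fold, adjusted p = 0.0179; call lost without withdrawal replicate 2 or maintained replicate 2 or 3), while the constitutive Hspa8 was not called (0.04). Of 18 genes for germ cell RNA binding and piRNAs, Tdrd5, a Tudor protein, rose from 419, 290.0 and 301 to 669, 672 and 553 (1.85-fold, adjusted p = 0.0175) and Pld6, a nuclease of piRNA synthesis, from 131, 137 and 139 to 244, 209 and 251 (1.65-fold, adjusted p = 0.00416). Tdrd5 lost its call without maintained replicate 2 or 3, and Pld6 kept it without each array in turn. Of 37 genes for ribosome biogenesis and polyamines 2 fell: Srm, spermidine synthase (-0.50, call lost without withdrawal replicate 2 or maintained replicate 1 or 3), and Nop58, a nucleolar protein (-0.63, call lost without withdrawal replicate 1 or 3 or any maintained array). Klf7 (0.59) was called higher and Klf10 (-0.60) lower among 13 Kruppel-like factors, and neither was called without withdrawal replicate 3 or maintained replicate 2. Klf7 also lost its call without withdrawal replicate 1 or 2 or maintained replicate 1, and Klf10 without maintained replicate 3.

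The remaining large changes that were called both with and without withdrawal replicate 3 lay outside the lists. Hmgn5, a protein that loosens nucleosomes, rose from 251, 241 and 254 to 963, 1079 and 655 (3.39-fold, adjusted p = 2.38e-05). Bnc2, a zinc finger protein, rose from 352, 336 and 417 to 977, 1135 and 1452 (3.1-fold, adjusted p = 1.36e-05). Smoc1, a secreted protein of basement membranes, rose from 259, 189 and 247 to 673, 639.6 and 1087 (3.23-fold, adjusted p = 0.000248). In these 3 the lowest withdrawal array stood clear above the highest maintained array, though arrays without overlap were a condition for naming the genes of this paragraph. Sertad4 rose 2.82-fold, and Nos1ap, an adaptor of neuronal nitric oxide synthase, and Tekt2, a protein of flagellar microtubules, rose from maintained levels under the filter, with withdrawal values of 76.8, 66.9 and 125 for Nos1ap and 80.6, 86.0 and 52.1 for Tekt2. Among the falls, Nim1k, a kinase of the AMPK-related family, went from 122, 110.4 and 95.6 to 8.2, 19.8 and 2.2, values under the filter (adjusted p = 3.79e-05). Itpkb, a kinase of inositol trisphosphate, fell from 184, 144 and 145 to 26.8, 9.5 and 76.7 (adjusted p = 0.0133; call lost without withdrawal replicate 2). Hebp1, a heme-binding protein, fell 3.29-fold, and Skor1, a transcriptional corepressor, fell from 129, 169.6 and 143 to 46.1, 43.2 and 38.4 (2.78-fold, adjusted p = 0.000701). Apart from that of Itpkb, the calls in this paragraph held without each array in turn. After the factors had been back for 8 h, Skor1 read 42.1, 33.2 and 38.6 and Krt19 22.3, 8.7 and 9.4, near their withdrawal values, whereas Epha2 read 243, 211 and 316, near its maintained values, and Bhlhe40 327, 327 and 334, between the 2.

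Genes whose call turned on withdrawal replicate 3 differed in how the arrays were placed. Of those called only with all arrays, Kif26a, a kinesin-like protein, read 2.5, 10.3 and 9.0 on maintained and 74.8, 21.1 and 240.0 on withdrawal arrays, with replicate 3 far above the others (log2 2.05 with it and 1.34 without). Rec8, a meiotic cohesin subunit, read 16.6, 9.2 and 49.1 and 96.5, 62.9 and 162, again highest on replicate 3, and was the single call among 15 meiotic and haploid markers, also lost without maintained replicate 2. Misp3, Efhc2 and Unc5a were in contrast at like values on the 3 withdrawal arrays (84.7, 76.8 and 74.4 for Misp3, 19.8, 10.4 and 13.1 for Efhc2 and 171, 138 and 177 for Unc5a), and their log2 differences changed little without replicate 3 (1.51, -1.40 and 1.37 against 1.48, -1.43 and 1.43). Unc5a also lost its call without maintained replicate 2, Efhc2 without withdrawal replicate 2 or maintained replicate 2 or 3, and Misp3 without any 1 of the 6 arrays. Kif26a, Rec8 and Misp3 had maintained means, and Efhc2 a withdrawal mean, under the filter, so the sizes of their differences depend on the constant of 16. For Lsr, a lipoprotein receptor of cell junctions, the difference went from -1.47 to -1.12, and the call was also lost without withdrawal replicate 1 or any maintained array. Of those called only without replicate 3, Vdac1, the channel of the outer mitochondrial membrane, read 607, 824 and 608 and 311, 248 and 723, with replicate 3 among the maintained values (log2 -0.78 with it and -1.23 without), while another of its 4 probe sets was called lower with all arrays (-0.98). Bpifa5 read 86.1, 116 and 7.9 on the withdrawal arrays against 28.7, 53.1 and 11.9, and Rnasek, Arap2, Nrn1l and Enpep had log2 differences with all arrays of -1.46, -1.10, -0.95 and 0.90, each closer to 0 than the -1.79, -1.44, -1.23 and 1.19 without it.

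Markers of other cells gave few calls. Of 19 fibroblast, 10 Sertoli cell and 4 Leydig and peritubular markers 0 were called in limma. Among 13 endothelial, blood and mast cell markers 1 was called, Cma1, a mast cell protease, at 319.6, 301 and 345 on maintained and 391, 496 and 701 on withdrawal arrays (adjusted p = 0.0374), and not without withdrawal replicate 3 (adjusted p = 0.139), withdrawal replicate 2 or any maintained array. Cpa3, another mast cell protease, was at 615, 568 and 474 and 565, 589.5 and 709, which overlap, and was not called. Summed over the 20 endothelial, blood and mast cell markers on the array, the signal was 1990 to 2300 on maintained and 2400 to 2915 on withdrawal arrays, while Pecam1 and Ptprc, which define endothelial cells and leukocytes, were under the filter. Summed signal of the 20 meiotic and haploid markers was likewise higher, at 2669 to 2889 on maintained and 3008 to 3562 on withdrawal arrays, with Tnp1, Tnp2 and Pgk2 under the filter. The part of such cells in the values above was not tested.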

How the data were processed

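Each of the 15 arrays measured RNA from 1 culture sample with 45101 probe sets. The deposited intensity values are MAS5 signal on a linear scale, per the submitters' processing notes, and the deposited values have a trimmed mean of 150 on each array. The MAS5 version is not given in the sources used here. Groups came from the titles. Names came from the platform annotation: 34958 probe sets have 1 symbol, 932 several and 9211 none.

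The constant 16 was added before log2. Control probe sets (64) and the dimmest 40% (a signal under 30.5) were left out, and of 22868 probe sets with 1 symbol the brightest per gene was kept, giving 13083 genes. limma 3.58.1 in R 4.3.3 fitted the 5 groups over all 15 arrays with a variance trend, 10 residual degrees of freedom and Benjamini-Hochberg adjustment. On simulated data for this comparison with 13083 genes, 70% of 2-fold and 95% of 4-fold changes were recovered, with 12 false calls. The simulated noise was independent between genes, so shifts shared by many genes on 1 array were not modelled. Alternatives changed the constant, filter, probe set rule, normalization, arrays, covariates and weights, and left out each array.

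The comparison and the gene lists were chosen with earlier results of these data known. Named genes were the 15 largest rises and 15 largest falls called with and without withdrawal replicate 3, with arrays that did not overlap. The 6 largest changes called only with or only without that array were also named. ERK, sterol and stem cell genes and clone or accession identifiers were left out of these rankings. Up to 5 called and 2 brightest uncalled members per list were named as well. Counts of 5 or fewer are also named. Further genes were chosen after their values were seen: Aldoa, Tpi1, Tkt, Rb1, Cox8a, Epas1, the cell markers and those of the closing section. Results of 1 of the 37 lists are not reported here. Promoter windows came from RefSeq, GRCm38.p6.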

Additional observations from a re-analysis of the deposited data

How the results depend on the processing

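The 1052 calls fell to 313 (146 higher, 167 lower) when only the 6 arrays were fitted, where fewer degrees of freedom remain, and rose to 2297 (1271 higher, 1026 lower) with array weights. Shifting arrays to 1 median left 265 higher; the cause was not tested. Leaving out single arrays gave 517 to 1014 calls, 265 to 505 higher and 248 to 509 lower. The other settings gave 841 to 1153. The labels name no pairing of replicates, and same-numbered arrays deviated from their group means with correlations of 0.08, -0.11 and -0.06. Deviations from a mean of 3 arrays constrain each other, so these values cannot decide whether samples were paired. With the replicate block 1121 genes were called, 1008 of them shared. Of 167 named genes called, 69 held under every setting, and 2 log2 differences changed sign with probe sets averaged, Atp2a2 to 0.0091 and Dpysl2, an axon guidance protein, to 0.0312. Medians of lists near 0 changed sign with the normalization, among them WNT, Notch, calcium, chaperone, clock and nuclear receptor genes. Signals under about 30.5 limit the folds of dim genes, such as Rspo1, Esr1, Krt19, Nim1k and Plk3.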

Other observations

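The following groups were listed after the values had been seen, so their counts describe these arrays and test nothing. Over all genes 4.21% were called higher and 3.83% lower, and 2.32% and 2.71% without withdrawal replicate 3. Of 25 tested genes of fatty acid oxidation, 4 were called higher, 2 lower and 19 neither way. Hadha, the alpha subunit of the mitochondrial trifunctional protein, read 747, 548 and 589 on maintained and 1207, 1297 and 1422 on withdrawal arrays (2.07-fold higher, limma adjusted p = 0.00158). Hadhb, its beta subunit, read 864, 921 and 901 and 1576, 1618 and 1729.5 (1.82-fold higher, adjusted p = 0.000166). Both were called under every alternative, and no maintained array reached a withdrawal array. Slc27a1, a fatty acid transporter (0.86), and Acaa1b, a peroxisomal thiolase (0.83), also rose, while Eci2 (-0.55) and Etfa (-0.71) fell. Slc27a1 was not called with probe sets averaged and Acaa1b not with only the 6 arrays fitted. Eci2 lost its call without withdrawal replicate 1 or 2 or maintained replicate 2 or 3, and Etfa without withdrawal replicate 3 or maintained replicate 2 or 3. The group's median log2 difference was 0.20, and 0.17 without withdrawal replicate 3.

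Genes that interferon-gamma induces and genes of class I peptide loading gave 8 higher and 1 lower of 25, with and without withdrawal replicate 3 (median 0.45 and 0.28). Cd274, the immune checkpoint ligand PD-L1, read 69.6, 62.1 and 55.9 and 241, 309 and 223 (3.46-fold higher, adjusted p = 3.03e-05). Ifi47, a GTPase, read 96.9, 75.1 and 63.6 and 174, 244 and 216 (2.41-fold higher, adjusted p = 0.00151), and Igtp, a GTPase of the same family, read 159.5, 181 and 167 and 414, 280.3 and 302 (1.86-fold higher, adjusted p = 0.00534). Irf8, a transcription factor, rose as well (0.87). H2-Ab1, a class II chain, went the other way, from 83.4, 57.5 and 66.5 to 22.8, 6.1 and 4.8, where all withdrawal values lay under the filter on dim probe sets. These 5 were called under every alternative that kept them in the test. Erap1 (0.77) and Irgm2 (0.76) were also called higher, but not without withdrawal replicate 1 or 2 or maintained replicate 2 or 3. Irf1 and Tapbp belong to the interferon list of the report too.

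Of 23 genes of neurofilaments, tubulins and axon proteins, 8 were called lower, 1 higher and 14 neither way, with a median log2 difference of -0.03, and -0.21 without withdrawal replicate 3. Nefm, the medium neurofilament chain, read 2309.8, 2363 and 2628 and 895, 637 and 605 (3.41-fold lower, adjusted p = 3.95e-05), and Nefl, the light chain, 196, 213 and 199.6 and 54.3, 54.5 and 46.2 (3.24-fold lower, adjusted p = 3.71e-05). Crmp1, a protein of axon guidance, read 742, 423 and 675 and 182, 99.8 and 131 (4.08-fold lower, adjusted p = 0.000431). Snap91 (-1.35), a clathrin adaptor, and Chga (-1.27), chromogranin A, fell as well, and these 5 calls held under every alternative. Tuba1a (-1.10) lost its call without withdrawal replicate 1 or maintained replicate 2. Tubb6 (-1.02) and Dpysl2 (-0.93) were called lower, but not with probe sets averaged. Of 15 HOX genes tested, 4 fell, all of the B cluster. Hoxb6 read 669, 588 and 562 and 275, 259.5 and 219.7 (2.33-fold lower, adjusted p = 0.000605) and Hoxb9 was 2.21-fold lower (adjusted p = 0.00925), both under every alternative. Hoxb2 (-0.68) and Hoxb4 (-0.65) were called with all arrays and not without withdrawal replicate 3 or maintained replicate 2.

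In the MAPK family, Mapk11, the kinase p38 beta, read 221, 204 and 202 and 69.7, 48.7 and 96.5 (2.63-fold lower, adjusted p = 0.00146), and Mapk12, p38 gamma, read 643, 639 and 661 and 308, 243 and 297 (2.23-fold lower, adjusted p = 0.00104). Both calls held under every alternative.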
